A study of Arabidopsis thaliana with 4 samples.

Results

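The regions described here are stretches of the chromosome arms of Arabidopsis thaliana whose CG methylation was lower in the ndx1-4 mutant than in Col-0 without being nearly gone. A region counted as such a partial loss when it was listed in the CG context on 1 of the 5 nuclear chromosomes, its level was lower in ndx1-4, and at least 0.1 of the cytosines still read as methylated there. It also had to overlap no listed CHG or CHH region (H is A, C or T), and its midpoint had to lie outside the windows around the centromeres, which left 98.05 Mb of arms. In all, 344 regions met the rule, out of 7023 listed regions in the series and 2977 in the CG context. The rule used both levels, so these are given as a description and were not tested.

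Genomic DNA of 14-day-old seedlings was measured by bisulfite sequencing, which turns unmethylated cytosines into thymine reads and leaves methylated cytosines unchanged. The mutant, ndx1-4, carries a T-DNA insertion in NODULIN HOMEOBOX (NDX, AT4G03090) and was represented by 2 libraries. Col-0, the wild-type accession, was also represented by 2 libraries. The deposited level of a region is a single mean per genotype, so no spread between libraries, no read depth and no test across plants could be given for any level below. Whole seedlings mix many cell types, so methylation of all copies in some cells and of some copies in all cells cannot be told apart in such a level.

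In plants, methylation at CG dinucleotides is copied onto the new DNA strand after replication by the methyltransferase MET1, which VIM proteins guide to sites methylated on the old strand alone. Methylation of the CHG and CHH contexts is kept by other enzymes and marks mostly transposons and repeats, while many transcribed genes carry CG methylation alone within their bodies. DNA glycosylases such as ROS1 and DME remove methylated cytosines. NDX is a homeodomain-like protein known for binding single-stranded DNA at the 3′ end of the flowering repressor gene FLC and for working with Polycomb RING1 proteins.

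The sequences of 11 partial losses are printed with the CG dinucleotides that lie wholly inside the region in capitals. A CG cut by the edge of a region stays in lower case, although its cytosine inside the region can be counted. Some regions counted fewer cytosines than the capitals hold, such as 7 of 13 and 4 of 7 in AT3G28770. Which cytosines were counted there is not known. All sequences were read from the plus strand of the RefSeq copy of TAIR10.1, 5′ to 3′. The first pair held the most counted cytosines per length among partial losses wholly in coding sequence. AT1G06560, a gene of the NOL1/NOP2/sun family, which holds RNA methyltransferases, had a level of 0.128 in ndx1-4 against 0.376 in Col-0 over 11 cytosines. AT1G62760, for a pectin methylesterase inhibitor family protein, had 0.288 in ndx1-4 against 0.586 in Col-0 over 18 cytosines. This region lay 18 bp from a listed CHG or CHH region, the smallest such gap of all partial losses.
AT1G06560, chr1:2011755-2011809: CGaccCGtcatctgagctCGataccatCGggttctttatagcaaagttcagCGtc
AT1G62760, chr1:23237592-23237683: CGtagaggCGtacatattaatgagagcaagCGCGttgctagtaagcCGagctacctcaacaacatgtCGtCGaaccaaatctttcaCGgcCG

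The next pair was the most cytosine-rich within introns. VHA-E2, for subunit E of the proton pump of the vacuole, had 0.325 in ndx1-4 against 0.527 in Col-0 over 8 cytosines, 166 bp from a listed CHG or CHH region. PDIL5-1, for a protein of the disulfide isomerase family, had 0.156 in ndx1-4 against 0.630 in Col-0, also over 8 cytosines.
VHA-E2, chr3:2601580-2601631: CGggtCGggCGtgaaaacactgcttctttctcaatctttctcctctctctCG
PDIL5-1, chr1:2467908-2467960: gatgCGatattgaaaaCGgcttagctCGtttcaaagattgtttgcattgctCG

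The most cytosine-rich pair outside genes lay on chromosome 5, within 1 kb before the start of a gene each. The first, 130 bp from AT5G06050, kept 0.630 in ndx1-4 against 0.803 in Col-0 over 18 cytosines. The second, 105 bp from AT5G45620, kept 0.493 in ndx1-4 against 0.684 in Col-0 over 13 cytosines.
Before AT5G06050, chr5:1819909-1819987: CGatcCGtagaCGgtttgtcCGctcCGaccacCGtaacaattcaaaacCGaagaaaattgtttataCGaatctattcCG
Before AT5G45620, chr5:18501322-18501381: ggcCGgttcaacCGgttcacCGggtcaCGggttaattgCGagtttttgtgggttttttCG

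The remaining 5 come from genes that held more than 1 partial loss. They range from 12 counted cytosines in 111 bp of TRN1 to 4 in 88 bp of AT3G28770, and the 185-bp stretch of IAA11 held 6.
AT3G28770, chr3:10797317-10797433: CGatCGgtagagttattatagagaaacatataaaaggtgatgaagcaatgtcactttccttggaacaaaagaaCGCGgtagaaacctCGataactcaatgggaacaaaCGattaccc
AT3G28770, chr3:10797485-10797572: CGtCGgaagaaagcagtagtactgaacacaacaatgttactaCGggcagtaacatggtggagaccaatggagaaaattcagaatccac
IAA11, chr4:14143198-14143382: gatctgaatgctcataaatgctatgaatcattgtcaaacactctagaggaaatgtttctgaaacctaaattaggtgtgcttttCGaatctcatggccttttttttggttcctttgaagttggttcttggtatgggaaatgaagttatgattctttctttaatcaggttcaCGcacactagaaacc
TRN1, chr5:22496368-22496478: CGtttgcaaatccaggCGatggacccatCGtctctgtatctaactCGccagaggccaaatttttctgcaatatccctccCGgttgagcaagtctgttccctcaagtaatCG
TRN1, chr5:22496790-22496877: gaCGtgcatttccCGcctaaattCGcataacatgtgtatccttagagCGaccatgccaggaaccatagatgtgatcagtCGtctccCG

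On the arms, 1937 CG regions overlapped no CHG or CHH region, and 828 of them (42.7%) were lower in ndx1-4. The 344 partial losses made up 41.5% of these 828 (95% Wilson interval 38.2% to 44.9%), and the other 484 fell below 0.1 in ndx1-4 and are called near-complete losses. Intervals of this kind cover the counting of regions alone, and listed regions are not replicates. Among the 140 CG losses on the arms that did overlap a CHG or CHH region, 53 (37.9%, interval 30.2% to 46.1%) kept a level of 0.1 or more. The remaining 1109 CG-only regions were higher in ndx1-4. Of these gains, 630 lay on DNA with a Col-0 level of 0.1 or more, called partly methylated here, and 479 on DNA below it, called unmethylated.

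Partial losses had a median level of 0.195 in ndx1-4 (lowest 0.1001, quartiles 0.143 and 0.291, highest 0.827). In Col-0 the median of the same regions was 0.663 (lowest 0.270, quartiles 0.566 and 0.750, highest 0.913). The median difference, ndx1-4 minus Col-0, was -0.424, and it ran from -0.724 to -0.0808. The fraction of the Col-0 level that was kept in ndx1-4 had a median of 0.323, with quartiles of 0.248 and 0.436. A typical partial loss was therefore well methylated in the wild type, and its mean level in ndx1-4 was about 0.323 of that in Col-0. By definition near-complete losses were lower in ndx1-4, with a median of 0.0339, and they also started lower, at 0.433 in Col-0. Their median difference was -0.386. The larger remainder in partial losses stood beside a higher starting level, and the fall on the scale of the level was of similar size. A partial loss has to start at or above 0.1 plus its fall, and a near-complete loss below 0.1 plus its fall. Part of the higher start therefore follows from the split itself.

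**Figure D1:**
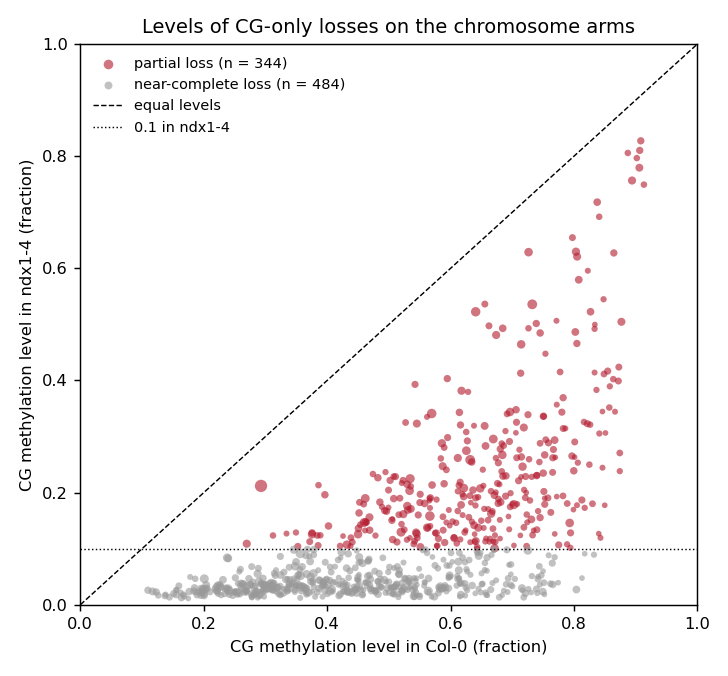
CG methylation level (fraction of cytosines read as methylated) in ndx1-4 on the vertical axis against Col-0 on the horizontal axis, 1 point per region, with larger points for more cytosines. The 344 partial losses lie above the dotted line at 0.1 and below the dashed line of equal levels, most of them with a Col-0 level over 0.5, and the 484 near-complete losses lie below 0.1.

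Most partial losses ended near the lower bound of the rule. In ndx1-4, 98 had a level from 0.1 to 0.15, 80 from 0.15 to 0.2, 85 from 0.2 to 0.3, 57 from 0.3 to 0.5 and 24 of at least 0.5. The bound cut through a continuous range, since 43 partial losses were below 0.12 and 40 near-complete losses were at 0.08 or more.

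The 3 partial losses nearest the bound were in AT4G19080, a gene for a protein of unknown function (0.1001 in ndx1-4, 0.643 in Col-0), before AT5G47920 at chr5:19404720-19404886 (0.101 in ndx1-4, 0.671 in Col-0) and in RSH1 (0.102 in ndx1-4, 0.794 in Col-0). RSH1 is a homologue of the bacterial RelA/SpoT enzymes that make the alarmone ppGpp. Just outside the bound lay a region in AT1G56280 (0.0997 in ndx1-4, 0.671 in Col-0), one at chr1:19233721-19233873 (0.0988 in ndx1-4, 0.368 in Col-0) and one in AT4G09585 (0.0986 in ndx1-4, 0.560 in Col-0).

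Partial losses were short, with a median of 105 bp (51 to 576 bp) and 8 counted cytosines (4 to 87). The fall was larger where few cytosines were counted. Its median was -0.504 in the 66 regions with 4 or 5 cytosines, -0.445 in the 114 with 6 to 8, -0.403 in the 95 with 9 to 12, -0.353 in the 52 with 13 to 20 and -0.330 in the 17 with 21 or more. The rank correlation of the signed difference with the number of cytosines was 0.358 (n = 344). The thresholds of the region caller are not given in the sources used here, and their part in this relation was not tested.

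The largest falls were in AT5G49430, a gene for a protein with WD40 repeats and a bromodomain (0.119 in ndx1-4 against 0.843 in Col-0, 5 cytosines), and KAPP, a phosphatase known to bind receptor kinases (0.127 in ndx1-4 against 0.840 in Col-0, 4 cytosines). The third largest was the region in RSH1 given above. Each of these 3 rests on 4 to 6 cytosines.

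The smallest fall lay at the tip of chromosome 2, in a region with a low level in Col-0, and is described below. The next were in regions that stayed highly methylated. A pseudogene on chromosome 2, AT2G05130, had 0.827 in ndx1-4 against 0.908 in Col-0, and a region 222 bp before AT4G00130 had 0.806 in ndx1-4 against 0.887 in Col-0. The pseudogene AT3G46487 had 0.810 in ndx1-4 against 0.907 in Col-0. These 3 kept between 0.894 and 0.911 of the Col-0 level, the highest fractions in the set.

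The partial losses were spread over all arms. There were 87 on chromosome 1, 55 on chromosome 2, 69 on chromosome 3, 41 on chromosome 4 and 92 on chromosome 5, which made 3.29, 3.64, 3.70, 2.70 and 4.06 per Mb of arm and 3.51 per Mb over all arms. Near-complete losses stood at 4.94 per Mb. The densest arms were the short left arms of chromosome 2 (12 in 2 Mb) and chromosome 4 (11 in 2.4 Mb, 4.58 per Mb). The count for chromosome 2 includes the regions at its tip, beside a ribosomal RNA gene, that are described below. Median levels differed little between chromosomes, from 0.181 to 0.225 in ndx1-4 and from 0.656 to 0.710 in Col-0.

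Gene bodies held most of them, as they held most CG dinucleotides of the arms. The midpoint lay in coding sequence in 180 (52.3%, interval 47.1% to 57.5%), in an intron in 43 (12.5%, interval 9.41% to 16.4%) and in an untranslated exon in 16 (4.65%, interval 2.88% to 7.42%). A further 39 (11.3%) lay within 1 kb before a protein-coding gene, 52 (15.1%) elsewhere between genes, 11 (3.20%) in pseudogenes and 3 in other kinds of gene. Of all CG dinucleotides on the arms, 48.1% lay in coding sequence, 9.73% in introns, 11.23% in untranslated exons and 11.9% within 1 kb before a gene. The share in untranslated exons was below that of the CG dinucleotides, and the shares in coding sequence, in introns and before genes had intervals that included theirs.

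Counted by any overlap, 242 of 344 partial losses (70.3%, interval 65.3% to 74.9%) touched a protein-coding gene. Near-complete losses did so in 68.0% of cases (interval 63.7% to 72.0%), gains on partly methylated DNA in 65.7% and gains on unmethylated DNA in 67.4%, so the intervals of all 4 classes overlapped.

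The size of the fall went with the place. Of the 65 partial losses that fell by less than 0.3, 24 (36.9%, interval 26.2% to 49.1%) touched a protein-coding gene, against 218 of 279 (78.1%, interval 72.9% to 82.6%) of those that fell by 0.3 or more. The share was 61.9% (52 of 84) for falls from 0.3 to 0.4, 77.4% (82 of 106) from 0.4 to 0.5, 94.0% (63 of 67) from 0.5 to 0.6 and 95.5% (21 of 22) at 0.6 or more. Only 7 of the 24 regions that kept a level of at least 0.5 in ndx1-4 touched a gene (29.2%, interval 14.9% to 49.2%). In the other classes the share was also lower under a difference of 0.3, by unequal amounts. Near-complete losses touched genes in 60.9% of cases under 0.3 (interval 53.1% to 68.2%) and 71.3% from 0.3 upwards (interval 66.2% to 76.0%), and these intervals overlapped. Gains on partly methylated DNA did so in 35.0% (interval 27.6% to 43.3%) and 74.2% (interval 70.2% to 77.9%), and gains on unmethylated DNA in 54.1% (interval 45.3% to 62.7%) and 72.0% (interval 67.1% to 76.4%). Whether the classes differ in this was not tested. Among partial losses, the counting of cytosines went with both place and fall. Those with every reference CG cytosine counted touched a gene in 49.4% of cases and had a median fall of -0.353. Those with some not counted touched a gene in 92.3% and had a median fall of -0.471. The part of counting in the relation between fall and place was not tested.

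**Figure D2:**
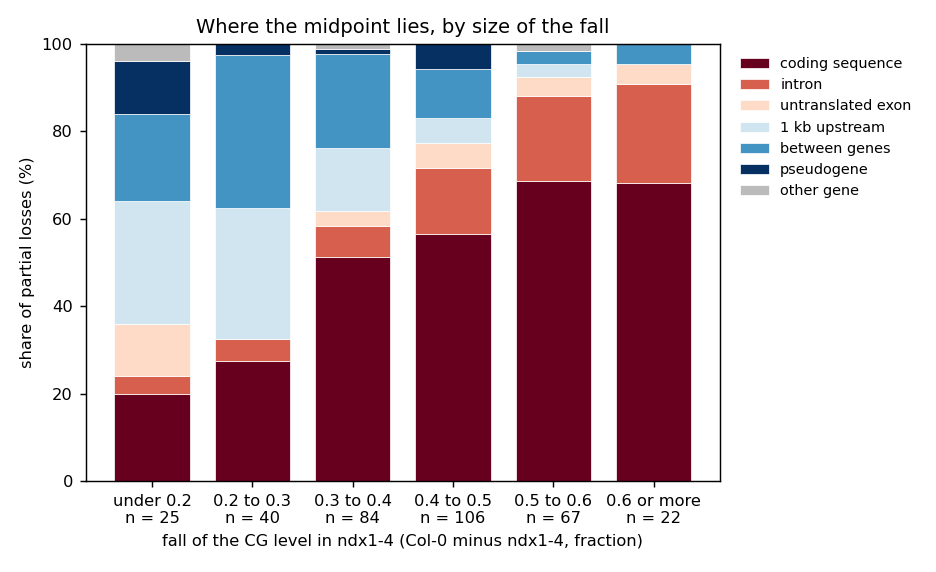
Share of partial losses (vertical axis, %) whose midpoint lies in each kind of place, stacked by colour, for 6 ranges of the fall in CG level (horizontal axis, Col-0 minus ndx1-4, as a fraction, with the number of regions). Coding sequence and introns fill most of the bars from 0.3 upwards, and places outside genes fill most of the bars below 0.3.

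The 242 partial losses in genes had a median level of 0.187 in ndx1-4 against 0.671 in Col-0 and kept a median fraction of 0.310. The 102 outside genes had 0.228 in ndx1-4 against 0.625 in Col-0 and kept 0.405. Those outside genes also lay closer to changes in the other contexts: a listed CHG or CHH region was within 5 kb of 39 of the 242 in genes (16.1%) and of 40 of the 102 outside (39.2%). Nearness to the centromere moved with the place as well. Within 1 Mb of the excluded windows 21 of 56 (37.5%) touched a gene, at 1 to 3 Mb 55 of 80 (68.8%), at 3 to 6 Mb 59 of 80 (73.8%), and farther out 107 of 128 (83.6%). The part of either in the levels was not tested.

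Within genes, partial losses lay toward the 3′ end. For the 238 whose midpoint fell in exactly 1 protein-coding gene, the median position was 0.683 of the way from the start to the end of transcription, and 177 of them (74.4%, interval 68.5% to 79.5%) lay past the middle of the gene. With each gene cut into 10 bins of equal length, bin 1 at the start held 6 (2.52%) and bin 10 at the end 30 (12.6%), with the most, 47 (19.7%), in bin 9. The share past the middle was 66.1% (interval 60.8% to 71.1%) for near-complete losses, 71.4% (interval 66.8% to 75.7%) for gains on partly methylated DNA and 62.5% (interval 57.0% to 67.7%) for gains on unmethylated DNA. All 4 classes thus leaned to the 3′ side, and the interval of the partial losses overlapped those of the first pair and lay above that of gains on unmethylated DNA. The levels on both sides of the middle were close. Partial losses past the middle had a median of 0.188 in ndx1-4 against 0.679 in Col-0, and the 61 before it had 0.183 in ndx1-4 against 0.657 in Col-0.

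**Figure D3:**
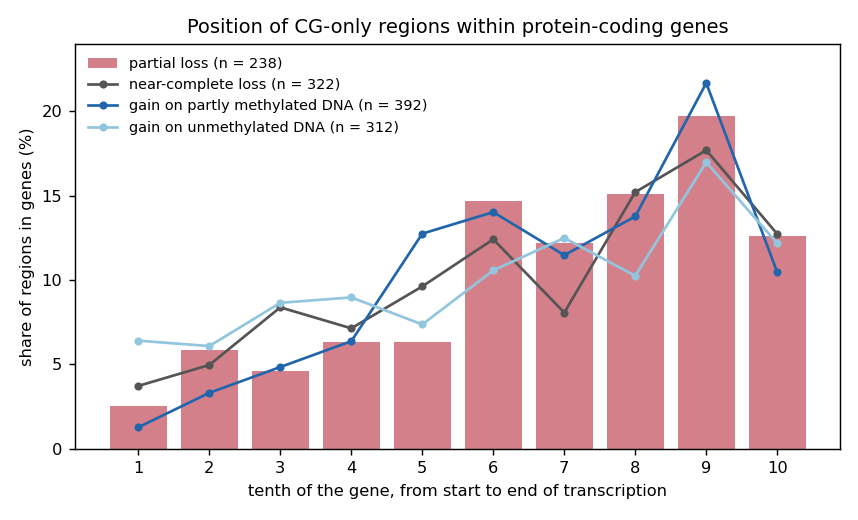
Share of the regions in genes (vertical axis, %) in 10 bins of equal length from the start to the end of transcription (horizontal axis, bins 1 to 10). Bars show the 238 partial losses, with 2.52% in bin 1 and 19.7% in bin 9, and lines show the 3 other classes of CG-only regions.

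The partial losses in genes touched 241 of the 25995 protein-coding genes on the arms (0.927%). These 241 genes were long, with a median of 3303 bp and 8 exons against 2097 bp and 4 exons for all genes on the arms. Single-exon genes made up 17 of the 241 (7.05%), against 18.7% of all genes. Genes with a near-complete loss had a median of 2900 bp and 6 exons. The share of genes with a partial loss was 0.310% up to 1 kb, 0.462% from 1 to 2 kb, 0.755% from 2 to 3 kb, 1.43% from 3 to 4 kb, 2.73% from 4 to 6 kb, 2.31% from 6 to 8 kb and 3.66% over 8 kb. A longer gene offers more sequence, and per Mb of gene the number of partial losses did not keep climbing with length. It was 4.74 up to 1 kb, 3.10 and 3.13 in the next bins, 4.17 from 3 to 4 kb, 5.84 from 4 to 6 kb, 3.67 from 6 to 8 kb and 3.45 over 8 kb.

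**Figure D4:**
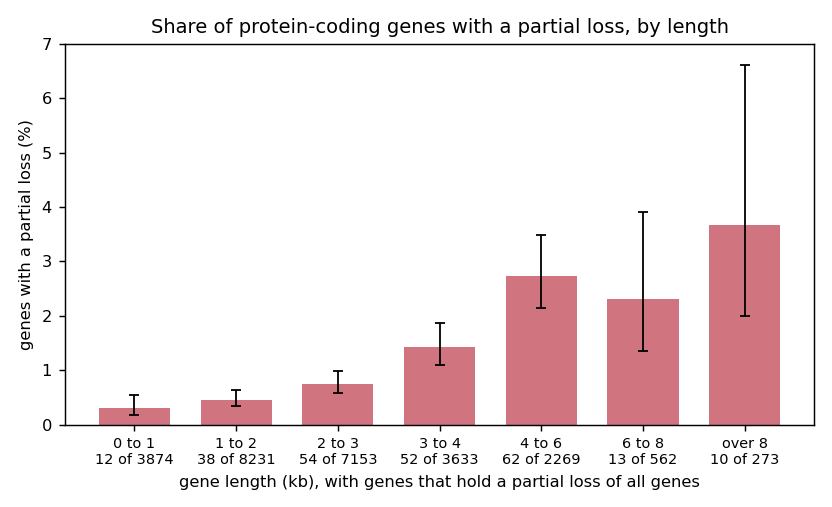
Share of protein-coding genes on the arms that hold a partial loss (vertical axis, %) by gene length (horizontal axis, kb, with the genes that hold one and all genes of the bin), with 95% Wilson intervals as error bars. The share was 0.310% in genes up to 1 kb and 3.66% in genes over 8 kb.

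Genes with a partial loss were looked at for other listed CG-only regions. In 229 of the 241 genes (95.02%) the partial loss was the sole one, 237 genes held exactly 1 partial loss, 4 held 2 and 0 held more. A near-complete loss was found in 5 of the 241 genes (2.07%, interval 0.889% to 4.76%), against 1.26% of all genes on the arms. A gain was found in 4 (1.66%, interval 0.647% to 4.19%), against 2.82% of all genes on the arms. Both intervals included the share of all genes. The 241 genes were longer than all genes, with a median of 3303 bp against 2097 bp, and the part of length in these shares was not tested. Of the 327 genes with a near-complete loss, 14 held a gain (4.28%, interval 2.57% to 7.06%).

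TRN1 (TORNADO 1, AT5G55540), a gene needed for leaf vein patterning, held the most losses of these genes. Its partial losses near the 3′ end had 0.150 in ndx1-4 against 0.650 in Col-0 (chr5:22496790-22496877) and 0.116 in ndx1-4 against 0.506 in Col-0 (chr5:22496368-22496478). Nearer the start, its near-complete losses had 0.0351 in ndx1-4 against 0.591 in Col-0 and 0.0308 in ndx1-4 against 0.592 in Col-0. All 4 regions lay in coding sequence, and the pair with the lower remainder was on the 5′ side.

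IAA11 (AT4G28640), a member of the Aux/IAA family of repressors of auxin response, held partial losses across a whole 92-bp intron and the exon ends beside it (0.116 in ndx1-4 against 0.529 in Col-0) and over the end of its coding sequence (0.113 in ndx1-4 against 0.372 in Col-0). AT3G28770, annotated as a putative transmembrane protein, held a pair 52 bp apart in the first part of its coding sequence. The first had 0.203 in ndx1-4 against 0.665 in Col-0 and the second 0.153 in ndx1-4 against 0.506 in Col-0. Both kept close to the same fraction, 0.305 and 0.303.

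Of the genes with both kinds of loss, DL1, for a dynamin-like protein of membrane traffic, had a partial loss with 0.352 in ndx1-4 against 0.857 in Col-0 and a near-complete loss with 0.0703 in ndx1-4 against 0.575 in Col-0. EDA25, annotated as a CCAAT-binding factor, had a partial loss with 0.177 in ndx1-4 against 0.850 in Col-0 and a near-complete loss with 0.0469 in ndx1-4 against 0.613 in Col-0. SUS5, a sucrose synthase, had a partial loss with 0.417 in ndx1-4 against 0.855 in Col-0 near its end and a near-complete loss with 0.0180 in ndx1-4 against 0.155 in Col-0 near its start. AT4G14368, of the RCC1 family, had a partial loss with 0.156 in ndx1-4 against 0.469 in Col-0 and a near-complete loss with 0.0236 in ndx1-4 against 0.409 in Col-0. In each of the 5 genes, TRN1 included, the near-complete loss was the less methylated one in ndx1-4 by definition, and in DL1, EDA25, SUS5 and AT4G14368 it also had the lower level in Col-0.

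The 4 genes with a partial loss and a gain were overlapped by changes of opposite sign. In AT1G79150 a partial loss (0.108 in ndx1-4, 0.540 in Col-0) lay between gains of 0.703 in ndx1-4 against 0.345 in Col-0, 87 bp away, and 0.502 in ndx1-4 against 0.238 in Col-0. In SEC3B, for a subunit of the exocyst that tethers secretory vesicles, a partial loss in an intron near the start (0.414 in ndx1-4, 0.833 in Col-0) stood against a gain near the end (0.539 in ndx1-4, 0.0529 in Col-0). In emb1345, a gene for a WD40 repeat protein, the gain came first (0.696 in ndx1-4, 0.0315 in Col-0) and the partial loss after it (0.126 in ndx1-4, 0.769 in Col-0). In AT3G25090, an F-box-associated gene, the partial loss covered the start (0.106 in ndx1-4, 0.385 in Col-0). The gain reached over the end (0.771 in ndx1-4, 0.317 in Col-0), and its midpoint lay outside the gene.

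**Figure D5:**
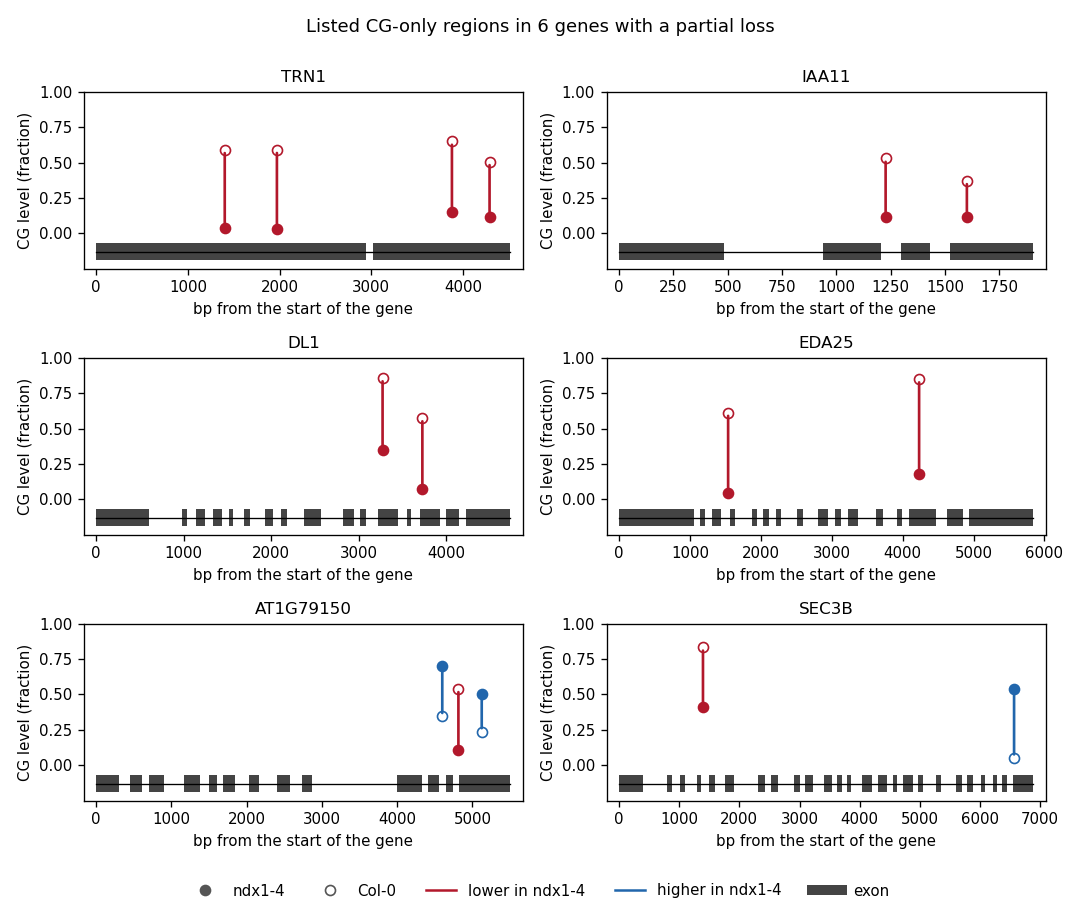
CG level (vertical axis, fraction) of the listed CG-only regions in TRN1, IAA11, DL1, EDA25, AT1G79150 and SEC3B by distance from the start of the gene (horizontal axis, bp), with exons as boxes, filled points for ndx1-4 and open points for Col-0. Red lines mark regions lower in ndx1-4 and blue lines regions higher in ndx1-4, and in AT1G79150 a loss lies between gains.

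The gene that carries the mutation held the longest partial loss. NDX (AT4G03090) lost methylation over 576 bp at chr4:1366817-1367392, mostly in coding sequence of its 3′ part, with 0.146 in ndx1-4 against 0.793 in Col-0 over 21 counted cytosines. The reference has 41 CG cytosines in this stretch. The T-DNA insertion lies in the same gene, and its part in this difference was not tested.

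The next longest partial losses were 527 bp between genes at chr3:16280535-16281061 (0.130 in ndx1-4, 0.520 in Col-0, 26 cytosines), 524 bp over the edge of AT5G17740, a gene for a nucleoside triphosphate hydrolase family protein (0.162 in ndx1-4, 0.666 in Col-0), and 388 bp in AT3G09760, for a RING/U-box protein (0.308 in ndx1-4, 0.625 in Col-0). The last counted 7 of the 25 CG cytosines of the reference.

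Apart from the tip of chromosome 2, given next, the partial loss in a gene with the most cytosines, 35, lay in CSLB01, a cellulose synthase-like gene, with 0.258 in ndx1-4 against 0.632 in Col-0. CDC48B, for an AAA ATPase of the CDC48 family, had 0.225 in ndx1-4 against 0.534 in Col-0 over 27 cytosines, and the protein kinase gene AT5G40030 had 0.179 in ndx1-4 against 0.702 in Col-0, also over 27. Outside protein-coding genes, chr3:1962674-1962864, at the edge of the noncoding RNA gene AT3G00210, kept 0.536 in ndx1-4 against 0.732 in Col-0 over 35 cytosines and chr1:26722471-26722684 kept 0.341 in ndx1-4 against 0.569 in Col-0 over 31. At chr4:655178-655444 the level was 0.158 in ndx1-4 against 0.566 in Col-0 over 32 cytosines, and 263 bp from ddf2 it was 0.147 in ndx1-4 against 0.460 in Col-0 over 24.

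The tip of chromosome 2 held 3 partial losses in its first 10 kb. The region with the most cytosines of the whole set, 87 in 362 bp, lay there in AT2G01008 (chr2:1184-1545) with 0.212 in ndx1-4 against 0.293 in Col-0, the smallest fall of all 344. A second in the same gene (chr2:3029-3199) had 0.523 in ndx1-4 against 0.641 in Col-0 over 30 cytosines, and another, in AT2G01023, had 0.629 in ndx1-4 against 0.726 in Col-0. An annotated gene for ribosomal RNA lies beside them. Genes of this kind form arrays of near-identical copies that short reads cannot tell apart, and their part in these levels was not tested.

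The partial losses farthest from any annotated gene lay 3934, 3030, 2690, 2034 and 2024 bp away. Their levels ran from 0.148 to 0.335 in ndx1-4 against 0.505 to 0.635 in Col-0, within the range of the rest. The 1 at chr1:11619453-11619531, with the stress regulator gene RCD1 as the nearest gene, lay 67 bp from a listed CHG or CHH region.

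Other listed changes were mostly far away. The median gap to the next partial loss was 78674 bp, and 8 of the 344 had another within 500 bp. A near-complete loss lay within 500 bp of 3, and a gain within 500 bp of 2. A CHG or CHH region lay within 500 bp of 19 (5.52%), of which 16 had a CHH region as the nearest and 3 a CHG region. That neighbour was lower in ndx1-4 in 12 cases and higher in 7. These 19 touched a protein-coding gene in 8 cases (42.1%, interval 23.1% to 63.7%), against 234 of the other 325 (72.0%, interval 66.9% to 76.6%), and had a median level of 0.288 in ndx1-4 against 0.590 in Col-0.

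In sequence, partial losses were rich in CG. Their median GC content was 41.8%, their ratio of observed to expected CG dinucleotides 1.16, and their density 4.53 CG per 100 bp, against 35.9%, 0.724 and 2.33 over the arms as a whole. Near-complete losses had 40.5%, 1.22 and 4.49. A region is listed from cytosine to cytosine, so some excess of CG over the arms follows from how regions are bounded.

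The number of cytosines counted by the authors was often below the number in the reference. All CG cytosines of both strands were counted in 176 of 344 partial losses (51.2%). In genes this held for 87 of 242 (36.0%, interval 30.2% to 42.2%), and outside genes for 89 of 102 (87.3%, interval 79.4% to 92.4%). Of the 168 regions with a lower count, 79 had a count equal to the cytosines of a single strand, the plus strand in 42 and the minus strand in 37. The other classes showed the same, with all cytosines counted in 44.1% of near-complete losses in genes and 87.1% outside. Regions with every cytosine counted had a median fall of -0.353 and the others -0.471, and the part of coverage in this was not tested.

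Gene lists of pathways that bear on methylation or on NDX were set beside the 0.927% of all genes. Of the 9 genes for CG maintenance and demethylation, MET1, VIM1 and ROS1 among them, 0 held a partial loss. It was also 0 of 25 genes on the arms for non-CG and RNA-directed methylation, 0 of 16 for abscisic acid signalling and 0 of 18 for the control of FLC and flowering. With a background share under 1%, lists of this size allow no statement about a shortage. Of 15 Polycomb and VAL genes on the arms, 1 held a partial loss: CLF (AT2G23380), the histone H3 lysine 27 methyltransferase of the Polycomb complex PRC2, had 0.271 in ndx1-4 against 0.874 in Col-0 across the edge of an intron at chr2:9959797-9959873. All 8 CG cytosines of that stretch were counted.

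By words in the annotated product, kinases were the largest class and gave the highest number of genes with a partial loss. The share was 21 of 1347 genes (1.56%, interval 1.02% to 2.37%), and this interval did not include the background of 0.927%. Disease resistance genes (2.12%) and helicases (1.68%) had higher shares. Several classes were looked at, and the intervals were not corrected for their number. The genes of the class had a median length of 3007 bp against 2097 bp for all genes, and the part of length in this share was not tested. Kinase genes also stood above all genes in the other classes, with a near-complete loss in 1.78% against 1.26% and a gain in 4.45% against 2.82%. They included TMK1, a receptor kinase of auxin signalling (0.326 in ndx1-4, 0.816 in Col-0), PBS1, a kinase that a resistance protein guards (0.277 in ndx1-4, 0.712 in Col-0), and WNK4 (0.160 in ndx1-4, 0.619 in Col-0). The word also caught enzymes of metabolism, PFK5 and PGK1 of glycolysis among them, and the phosphatase KAPP. These genes were picked from the class after their values were seen.

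The other classes had shares whose intervals included the background. Each class rests on words of the product alone, so genes whose product lacks the words were missed. Such genes with a partial loss include AT1G14205, annotated as a ribosomal L18p/L5e family protein, and ABCC14, annotated as a multidrug resistance-associated protein. Ubiquitin pathway genes stood at 14 of 1295 (1.08%), genes with transcription factor words at 10 of 1204 (0.831%, NDX included), disease resistance genes at 4 of 189 (2.12%), pentatricopeptide repeat genes at 4 of 303 (1.32%), RNA-binding proteins at 3 of 267 (1.12%), transporters at 3 of 447 (0.671%), helicases at 2 of 119 (1.68%), ribosomal proteins at 1 of 331 (0.302%) and tRNA ligases at 0 of 63. The transcription factor words also caught zinc finger proteins such as AT1G69420, of the DHHC type, and AT1G18760, with a RING finger. AT1G18760 was counted under the ubiquitin pathway as well. NAC065 and NF-YA2 held a partial loss but lacked the words. The helicases were ETL1 and XPB1. ETL1, of the SNF2 family of chromatin remodellers, had 0.486 in ndx1-4 against 0.802 in Col-0. XPB1, a DNA repair helicase, had 0.171 in ndx1-4 against 0.655 in Col-0. The gene with ribosomal protein words was RPL5B (0.253 in ndx1-4, 0.806 in Col-0). The genes with the word transporter were OZS1, AT1G29830 and AT1G68600. OZS1, also known as the guard cell anion channel gene SLAC1, had 0.124 in ndx1-4 against 0.672 in Col-0. AT1G29830 had 0.340 in ndx1-4 against 0.692 in Col-0, and AT1G68600 had 0.124 in ndx1-4 against 0.312 in Col-0. The genes with RNA-binding words were AT4G17420, AT5G46840 and ELF9, with 0.255, 0.104 and 0.230 in ndx1-4 against 0.744, 0.723 and 0.740 in Col-0. The disease resistance genes were AT4G23440, AT5G05400, AT5G18370 and AT5G38850, with levels from 0.166 to 0.278 in ndx1-4 against 0.652 to 0.680 in Col-0. The pentatricopeptide repeat genes were AT3G59300, AT3G62540, AT5G12100 and AT5G14770, with 0.112 to 0.197 in ndx1-4 against 0.616 to 0.721 in Col-0.

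The size of the set depended on where its bounds were drawn. With a bound of 0.2 in ndx1-4 in place of 0.1 it held 166 regions, and with at least 10 counted cytosines 144.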

How the data were processed

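The authors deposited a table of differentially methylated regions between ndx1-4 and Col-0 in 3 contexts. The deposited levels are fractions from 0 to 1, 1 mean per genotype with both libraries combined, and the number of cytosines per region is a deposited count. The submitters' processing notes name Bismark and TAIR10, while versions, the region caller and its thresholds are not given in the sources used here. The labels give libraries of 150-base paired-end reads. The depth behind each level is unknown. Columns with the authors' own difference and area statistic were not used, and 0 columns of samples were left unmapped. Differences were recomputed from the levels. Both ends of all 344 regions fell on a CG cytosine of RefSeq TAIR10.1, whose annotation was used for genes. Groups came from the sample titles.

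Members and gene lists were chosen with earlier results of these data known. Named regions were those with the most cytosines (10), the largest and smallest fall and the highest kept fraction (3 each), the nearest to the bound on either side (3 each), the longest and the farthest from genes (5 each), and those in genes with 2 partial losses, in list genes or in genes that also held a gain. In the non-CG list 27 of 30 symbols and in the Polycomb list 15 of 17 matched the annotation, and in the other lists all did. Shares have 95% Wilson intervals, and no test across libraries was possible. The counting steps were tested on simulated data. Alternatives were other bounds on the level, the difference, the cytosines, the windows and the distance to CHG or CHH regions. Python 3.11.15, pandas 2.3.3, numpy 2.4.6, scipy 1.17.1 and matplotlib 3.10.9 were used.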

Additional observations from a re-analysis of the deposited data

How the results depend on the processing

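No paired analysis was possible because the files used give 1 mean per genotype, and for the same reason no library could be left out. With a bound of 0.2 in ndx1-4 there were 166 regions, with a median level of 0.295 in ndx1-4 and 0.716 in Col-0, a difference of -0.379 and a kept fraction of 0.440. Of these, 63.3% touched a protein-coding gene and 7.23% had an intronic midpoint, and the observed to expected CG ratio was 1.28. With a difference of at least 0.3, the median difference was -0.455 and the kept fraction 0.303, with 78.1% touching a gene and 58.8% in coding sequence. With at least 10 cytosines there were 144 regions, with 0.221 in ndx1-4 and 0.641 in Col-0, a difference of -0.373 and a kept fraction of 0.362. Of these, 57.6% touched a gene, 44.4% lay in coding sequence and 6.94% in introns, the median position in the gene was 0.746, 0% shared a gene with a gain and the CG ratio was 1.32. With windows widened by 1 Mb, 76.7% touched a gene and 58.0% lay in coding sequence. All other 43 values stayed within the interval set for the value reported. For shares and medians this was a counting interval. For the number of regions it was a wide fixed band, 229 to 516, which is not a counting interval. Counts of 279 (difference of at least 0.3), 288 (wider windows) and 325 (no CHG or CHH region within 500 bp) fell in that band. The 43 include every value without regions within 500 bp of a CHG or CHH region. They also include every value without NDX and the first 10 kb of chromosome 2, an alternative chosen after seeing the data that left 340 regions. The sign of the difference was fixed by the rule and could not change. With depth unknown and 4 cytosines in the smallest regions, the precision of a single level cannot be given.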

Other observations

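Among the 273 genes over 8 kb on the arms, 10 (3.66%) held a partial loss, 10 a near-complete loss and 20 a gain. The 10 genes with a partial loss are named here. Myosins were looked at after this list had been seen. Of 13 genes over 8 kb with myosin in the product name, most of them class XI motors that move organelles along actin, 4 held a partial loss, 0 a near-complete loss and 0 a gain. MYA1 had 0.239 in ndx1-4 against 0.800 in Col-0, XIE had 0.230 in ndx1-4 against 0.690 in Col-0, and XIH had 0.181 in ndx1-4 against 0.789 in Col-0, all in coding sequence near the 3′ end. XIF had 0.161 in ndx1-4 against 0.723 in Col-0 in the first part of the gene. The other 9 myosin genes held no listed CG-only region.

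The remaining 6 long genes were SECA2, PRP40B, GSL04, EMB1135, ATM and AT5G49430. SECA2, a protein translocase subunit, had 0.107 in ndx1-4 against 0.775 in Col-0, and PRP40B, a pre-mRNA processing protein, had 0.265 in ndx1-4 against 0.797 in Col-0. GSL04, a glucan synthase, had 0.321 in ndx1-4 against 0.826 in Col-0, and EMB1135, annotated with RING, FYVE and PHD zinc fingers, had 0.289 in ndx1-4 against 0.758 in Col-0. ATM, the kinase of the response to DNA breaks and the longest gene of the set with 27265 bp and 79 exons, had 0.113 in ndx1-4 against 0.656 in Col-0 near its middle. Whether long genes of these kinds would lose CG methylation again in other ndx1-4 plants was not tested.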
